A study of Homo sapiens with 6 samples.

Results

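Glucocorticoid receptor (GR) peaks were examined at 7 genes of fasting metabolism: PDK4, ANGPTL4, LPIN1, GLUL, IGFBP1, PCK1 and TAT. A peak was taken when its centre lay in a fixed window of the hg19 genome around each gene, holding the gene body and about 50 kb at each side. Of 116356 peaks in 12 deposited lists, 105 (0.0902%) lay in the 7 windows, which cover 910 kb together. All but 1 of them, 104, were in lists of dexamethasone-treated cells.

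The peaks came from ChIP-seq with an antibody against GR in a pair of stable lines made from U-2OS, a human osteosarcoma line: the GR cell, and the MR/GR cell, in which the mineralocorticoid receptor (MR) is present as well. Both lines were given either DMSO as vehicle or 100 nM of the synthetic glucocorticoid dexamethasone, for 2 hr, and there were 3 numbered peak lists for each line and treatment. Each line stands alone for its receptors. Nothing in the labels tells separate cultures from repeat runs. The p-values here set a difference between groups only against the spread of lists within a group, and that spread may be technical. The GR cell had 26191 to 37650 peaks per treated list, the MR/GR cell 3713 to 10459, and vehicle lists had 11 to 238. The lists give positions without heights, and read depth is unknown, so a missing peak may mean no binding or binding too weak to be called. Since peak lists carry no expression values, neither the U-2OS label nor the activity of any gene was checked.

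Glucocorticoids take part in the switch from fed to fasting metabolism, in which liver makes glucose from amino acids and glycerol while other tissues burn fat. GR bound to ligand moves to the nucleus and attaches to DNA, often at a pair of short inverted repeats and often far from the genes it controls. PDK4, ANGPTL4, LPIN1 and GLUL are expressed in many tissues, whereas IGFBP1, PCK1 and TAT are made mainly in liver, PCK1 also in kidney and fat. A peak in a window cannot be assigned to the named gene from its position alone. In RefSeq's gene table every one of these genes has a coding neighbour within 50 kb. That distance was taken from the gene's span in RefSeq, not from the hg19 window, so a neighbour may lie outside the window. ANGPTL4 has KANK3, RPS28, NDUFA7, RAB11B and MARCHF2, PDK4 has ASB4, LPIN1 has GREB1 and NTSR2, and GLUL has TEDDM1. IGFBP1 has IGFBP3 and CCDC201, PCK1 has CTCFL and ZBP1, and TAT has CHST4 and MARVELD3.

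Promoter sequences were at hand for 4 of the 7 genes, in 7 entries of RefSeq's table for GRCh38.p14, each running from 250 bases before a gene's start to 50 after. They could not be laid over the hg19 peaks, and the genome sequence under the peaks was not used here. The PDK4 and ANGPTL4 promoters are shown because these genes held the most sites in the MR/GR cell. The PDK4 promoter is chr7:95596467-95596766 on the minus strand and the ANGPTL4 promoter chr19:8363905-8364204 on the plus strand, both in GRCh38.p14. Capitals mark 1 arm of the GR element in the first and a TATA box in the second.
PDK4: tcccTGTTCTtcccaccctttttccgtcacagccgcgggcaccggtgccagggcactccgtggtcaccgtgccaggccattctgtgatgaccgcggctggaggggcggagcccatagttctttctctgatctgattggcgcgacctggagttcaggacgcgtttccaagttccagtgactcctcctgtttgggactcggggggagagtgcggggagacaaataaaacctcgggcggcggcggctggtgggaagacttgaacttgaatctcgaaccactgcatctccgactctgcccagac
ANGPTL4: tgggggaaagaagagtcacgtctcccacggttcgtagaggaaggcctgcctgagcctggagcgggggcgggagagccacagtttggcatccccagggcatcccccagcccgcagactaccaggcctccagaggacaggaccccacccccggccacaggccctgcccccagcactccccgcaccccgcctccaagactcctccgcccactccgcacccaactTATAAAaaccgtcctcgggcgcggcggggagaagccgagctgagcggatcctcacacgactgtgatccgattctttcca
The full GR element, AGAACA and TGTTCT with any 3 bases between them, was searched on both strands and was in none of the 7 entries. It was in 0.00285% of all 35116 promoters of the table. The single arm TGTTCT, also searched on both strands, was in the PDK4 entry alone, 246 bases before the start, and in 14.8% of all promoters. The TATA box TATAAA was in the ANGPTL4 entry alone, 29 bases before the start, and in 11.5% of all promoters on either strand. Neither a PPAR receptor element, AGGTCA repeated with any 1 base between (0.0228% of promoters), nor GTAAACA, an element of FOXO factors (3.42%), was in any of the 7 entries. These motifs do not overlap one another beyond the arm within the full element, and a match or its lack is only a description of the letters in these stretches.

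PDK4 had the most sites shared by the lines, 4 of its 5. PDK4 is pyruvate dehydrogenase kinase 4, which shuts the entry of pyruvate into oxidation and so spares glucose in fasting. Its window had 5 peaks in each of the 3 treated GR-cell lists and 4 in each of the 3 treated MR/GR-cell lists, and none in any of the 6 vehicle lists. Peaks that overlapped by at least 1 bp were merged into sites, and a line was said to hold a site with a peak in at least 2 of its 3 treated lists. All 5 PDK4 sites were in 3 of 3 GR-cell lists, and 4 of them were in all 6 treated lists. The 4 shared sites were chr7:95179454-95179877, chr7:95226353-95226788, chr7:95238200-95238623 and chr7:95258021-95258444. The last, chr7:95174225-95174694, lay 5.21 kb from its neighbour and was in no MR/GR-cell list.

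The PDK4 counts were high in both lines when set beside the rest of the genome. Among 24538 tiles of 120 kb, the length of this window, 2.76% had at least as many GR-cell peaks as PDK4 and 0.302% at least as many MR/GR-cell peaks. Tiles averaged 1.29 peaks per GR-cell list and 0.283 per MR/GR-cell list, and they include stretches without genes. The count depends on the window edges, since with 25 kb trimmed at each side both lines held the same 2 PDK4 sites. Only 1 of the 5 PDK4 sites, chr7:95226353-95226788, lay in the middle band of the window, that is more than 50 kb from either edge, where the rule places the gene body.

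**Figure D1:**
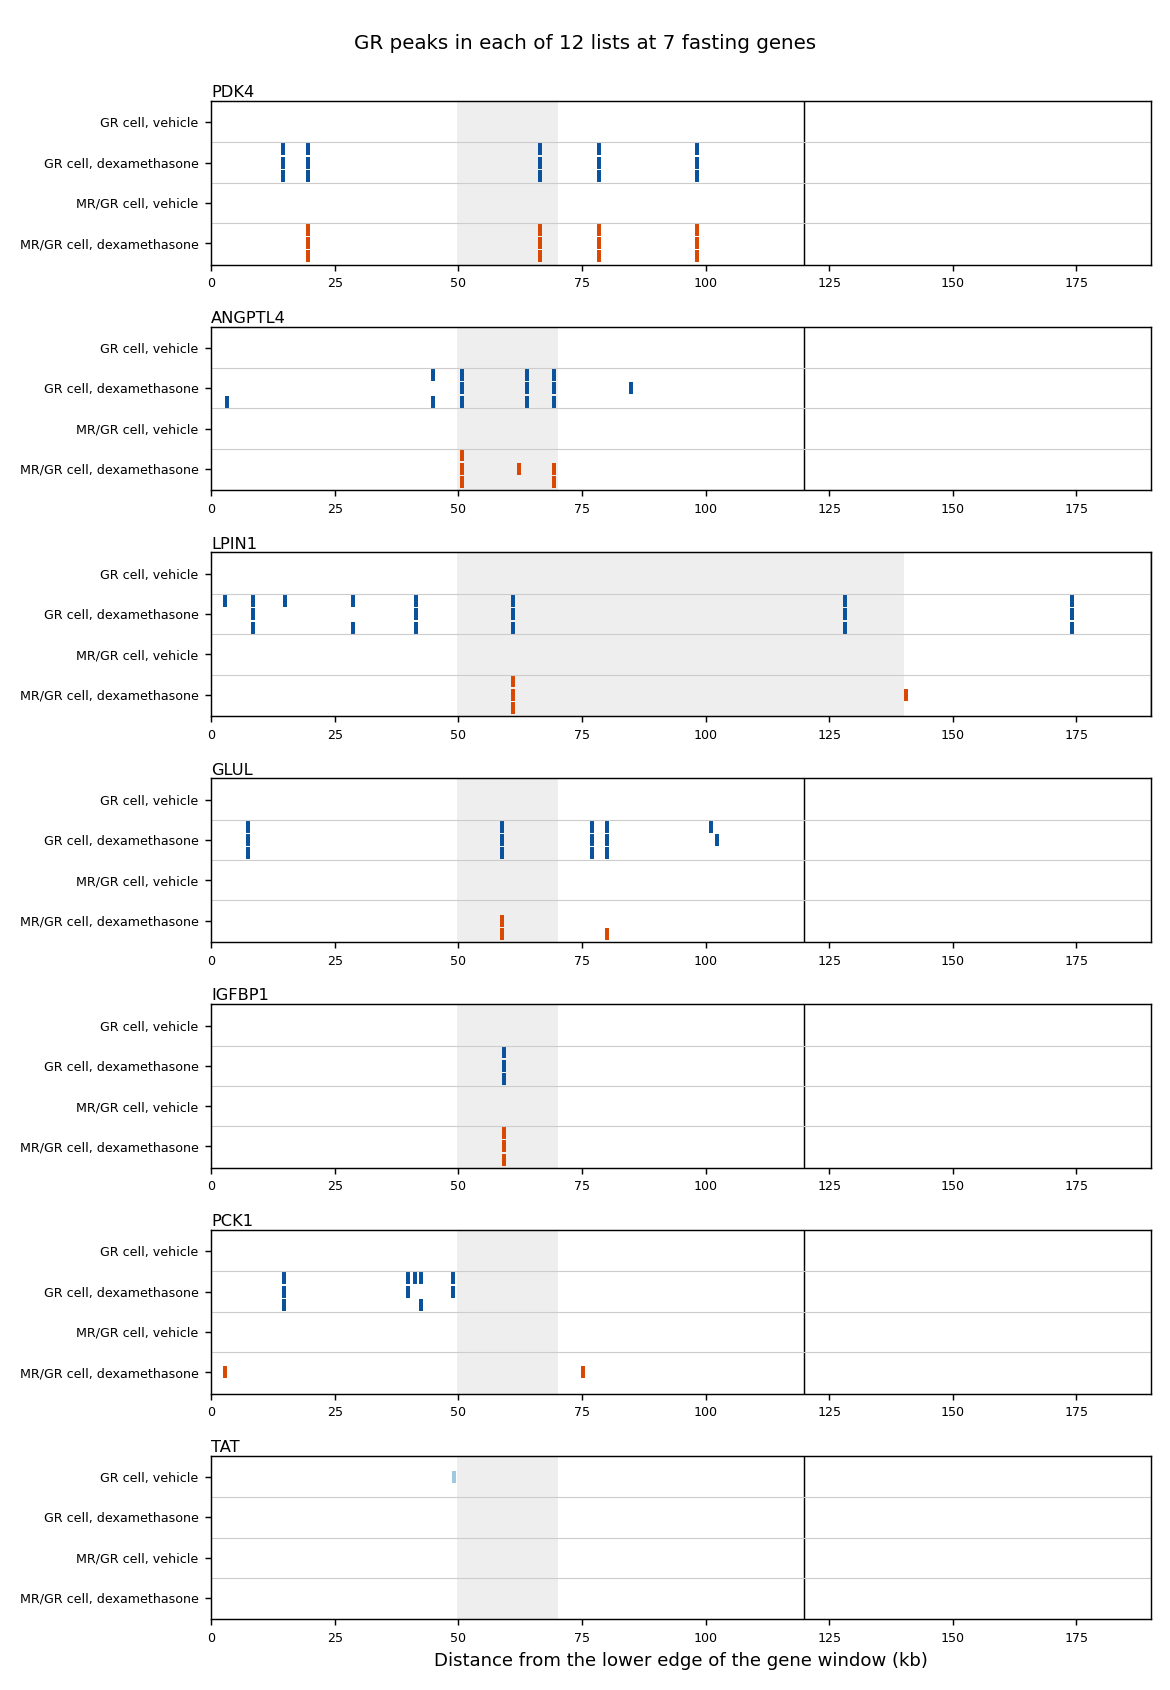
Peaks of the 12 lists along each gene window, drawn at the midpoint of their site. The horizontal axis is the distance from the lower edge of the window in kb, each row of marks is 1 list (3 rows per line and treatment, list 1 on top), the grey band is the middle band and the black line the upper edge. PDK4 has 4 columns of marks that run through all 6 treated lists, ANGPTL4, LPIN1 and IGFBP1 have 1 each, and GLUL, PCK1 and TAT have none.

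ANGPTL4 encodes a secreted inhibitor of lipoprotein lipase, which directs fat away from storage in fasting. Its window had 4, 4 and 5 peaks in GR-cell lists 1, 2 and 3, and 1, 3 and 2 in the MR/GR-cell lists. The counts of the lines did not overlap. The GR cell held 4 sites and the MR/GR cell 2, both among the 4. The site chr19:8420557-8420983 was in all 6 treated lists. The site chr19:8439055-8439532 was in 3 GR-cell lists and in MR/GR-cell lists 2 and 3, and without either of those lists it did not meet the rule for the MR/GR cell. Between them, chr19:8433587-8434089 was in 3 GR-cell lists and absent from the MR/GR-cell lists. These 3 sites lay within 18.5 kb of one another in the middle band. The remaining site of the GR cell, chr19:8414614-8415037, was in 2 GR-cell lists, and 3 further sites were in 1 list alone.

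LPIN1 encodes lipin 1, a phosphatidate phosphatase that also acts as a coactivator of genes for fat oxidation. Its window is the longest, 190 kb, and had 8, 5 and 6 peaks in the GR-cell lists and 1, 2 and 1 in the MR/GR-cell lists. Every GR-cell list was above every MR/GR-cell list. The GR cell held 6 sites, 5 of them in 3 of 3 lists, and the MR/GR cell held 1. That site, chr2:11890918-11891341, was in all 6 treated lists and lay in the middle band. The other 4 sites of 3 GR-cell lists were chr2:11838311-11838734, chr2:11871225-11871670, chr2:11958006-11958429 and chr2:12003894-12004473, and no MR/GR-cell list had a peak at any of them. The last, chr2:11858534-11858957, was in 2 GR-cell lists and likewise in none of the MR/GR cell. RefSeq lists 3 promoters for LPIN1, so a site outside the middle band may still lie in a longer form of the gene.

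GLUL encodes glutamine synthetase, which joins ammonia to glutamate and is a known target of glucocorticoids in muscle. Its window had 5, 5 and 4 peaks in the GR-cell lists and 0, 1 and 2 in the MR/GR-cell lists, again without overlap between the lines. All 4 sites held by the GR cell were in 3 of 3 lists. The site chr1:182358669-182359092, in the middle band, was also in MR/GR-cell lists 2 and 3, and without either of them the MR/GR cell held 0 GLUL sites. The site chr1:182379769-182380202 was also in MR/GR-cell list 3. It lay 3.05 kb from chr1:182376723-182377146, which, like chr1:182307242-182307715, was in no MR/GR-cell list. GLUL had no site in all 6 lists.

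Among the genes made mainly in liver, IGFBP1 had 1 site and it was called in every treated list of both lines. IGFBP1 encodes a secreted protein that binds insulin-like growth factors. The site, chr7:45928941-45929367, lay in the middle band, and the window had 1 peak in each of the 6 treated lists and 0 in each of the 6 vehicle lists. A count of 1 GR-cell peak is common, with 55.8% of tiles at that level or above. In the MR/GR cell 13.6% of tiles reached it.

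PCK1 encodes the cytosolic phosphoenolpyruvate carboxykinase, the enzyme that commits carbon to glucose synthesis. Its window had 5, 3 and 2 peaks in the GR-cell lists, and 0, 2 and 0 in the MR/GR-cell lists, so the lines overlapped. The GR cell held 4 sites and the MR/GR cell none. The site chr20:56094422-56094845 was in 3 of 3 GR-cell lists. The other 3, chr20:56119710-56120092, chr20:56122191-56122614 and chr20:56128676-56129084, were each in 2 of 3 lists and lay within 8.98 kb of one another. No PCK1 site lay in the middle band. Both MR/GR-cell peaks, chr20:56082720-56083003 and chr20:56155062-56155345, were in list 2 alone and matched no GR-cell peak.

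TAT encodes tyrosine aminotransferase, which starts the breakdown of tyrosine and is a classical glucocorticoid target of liver cells. Its window had no peak in any of the 6 treated lists, as was the case for 28.9% of 120 kb tiles. The only peak there, chr16:71599035-71599386, was in vehicle list 2 of the GR cell and in no other list, and the closest treated peak was 59.6 kb away. Sites of 3 of 3 GR-cell lists lay just outside the window, chr16:71539246-71539828 at 10.5 kb below its lower edge and chr16:71718469-71718898 at 48.7 kb above its upper edge. Neither was in an MR/GR-cell list. The closest treated peaks of the MR/GR cell lay 655.5 kb outside the window.

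**Figure D2:**
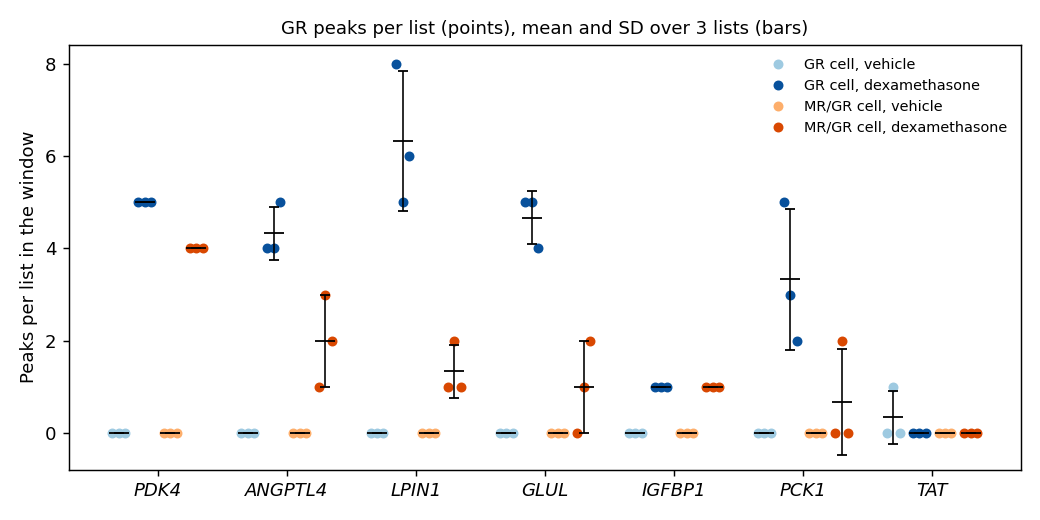
Peaks per list in each gene window (vertical axis, number of peaks), with 1 point per list, colours for line and treatment, a horizontal mark for the mean and a bar for the SD over 3 lists. PDK4 sits at 5 and 4 in the treated lists, LPIN1 at 5 to 8 and 1 to 2, and the vehicle lists are at 0 but for 1 peak at TAT.

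The first comparison asked how dexamethasone changed the number of GR peaks at these genes. In the GR cell the windows together had 24.7 ± 2.89 peaks per treated list and 0.333 ± 0.577 per vehicle list (SD, n = 3 lists each). The same sums were 10.0 ± 3.00 and 0 ± 0 for the MR/GR cell. Within the GR cell all treated lists were above all vehicle lists at 6 of the 7 genes, all but TAT. The same rule was met by 52.3% of 120 kb tiles and 66.7% of 190 kb tiles, the length of the LPIN1 window. For each of the 6 genes the two-sided exact permutation test gave p = 0.1, the smallest that 3 lists against 3 allow, so no single gene could pass 0.05. Adjustment could only raise these values and was not made.

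In the MR/GR cell the treated lists stood above the vehicle lists without overlap at 4 genes, PDK4, ANGPTL4, LPIN1 and IGFBP1, against 10.8% of 120 kb tiles (16.1% of 190 kb tiles). Each had p = 0.1 (exact permutation test, two-sided). GLUL and PCK1 had 0 peaks in at least 1 treated list and so overlapped with vehicle. Some tiles, like the TAT window, have no treated peak: of 120 kb tiles with at least 1 treated peak, 73.6% met the rule for the GR cell and 15.2% for the other line. With vehicle alone the windows gave nothing to compare between the lines, with 1 peak in 6 lists. A vehicle peak in at least 1 of the 6 lists was found in 2.34% of tiles.

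The comparison between the lines after dexamethasone, the one named in the study's title, gave fewer peaks in the MR/GR cell at 5 genes and equal counts at IGFBP1 and TAT. The difference in mean peaks per list was -1 at PDK4, -2.33 (SE 0.667) at ANGPTL4, -5.00 (SE 0.943) at LPIN1, -3.67 (SE 0.667) at GLUL and -2.67 (SE 1.1) at PCK1. All lists of a line had the same count at PDK4, which leaves that difference without a spread. At PDK4, ANGPTL4, LPIN1 and GLUL the lists did not overlap (p = 0.1 each, two-sided exact permutation test, the smallest possible), and at PCK1 they did (p = 0.2, same test). With windows trimmed by 25 kb at each side the PDK4 difference was 0 (exact permutation p = 1) and its lists no longer stood apart. The same rule was met, MR/GR cell lower, by 39.1% of 120 kb tiles and by 55.0% of those with a treated peak, so 4 of 7 is near the background. For the length of the LPIN1 window the share was 51.7%.

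The size of the difference was uneven. GR-cell lists had 1.25-fold more peaks than MR/GR-cell lists at PDK4, 2.17-fold more at ANGPTL4, 4.75-fold more at LPIN1, 4.67-fold more at GLUL and 5.00-fold more at PCK1. Whole treated lists differed 4.55-fold in their mean length. The ratio at PDK4, ANGPTL4 and IGFBP1 was below the 4.55 of the lists, also when any 1 treated list was left out of the gene's ratio. It was then 1.73 to 2.89 at ANGPTL4 and unchanged throughout at PDK4 and IGFBP1. The 4.55 was not recomputed for each list left out, though it too depends on the lists used. LPIN1 ranged from 4.125 to 6.33 without 1 list. The GLUL ratio moved with the MR/GR-cell list left out, with 3.11 without list 1, 4.67 without list 2 and 9.33 without list 3. The PCK1 ratio rests on a single MR/GR-cell list, since without list 2 no MR/GR-cell peak was left and so no ratio. Over the 7 windows together the ratio was 2.47.

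Each count was also scaled to 10000 peaks of its list, that is divided by list length. PDK4 then had 1.33, 1.62 and 1.91 peaks per 10000 in the GR-cell lists and 10.8, 3.82 and 6.01 in the MR/GR-cell lists. ANGPTL4 had 1.06, 1.29 and 1.91 against 2.69, 2.87 and 3.00, and IGFBP1 had 0.266, 0.323 and 0.382 against 2.69, 0.956 and 1.502. At these 3 genes every MR/GR-cell list was now above every GR-cell list (p = 0.1 each, two-sided exact permutation test). In unscaled counts PDK4 and ANGPTL4 had the opposite order and IGFBP1 equal counts. Of 120 kb tiles, 8.07% also had every scaled MR/GR-cell list higher, and 11.4% of those with a treated peak. The opposite scaled order was met by 27.6% of tiles and by 38.8% of those with a treated peak. A gene with the same count in every list of a line, as PDK4 and IGFBP1 had, gives its highest scaled value in the shortest list. Given those counts, the scaled order of the lines at PDK4 and IGFBP1, and its p-value, follow from list length. LPIN1 had scaled means of 2.01 ± 0.351 and 2.04 ± 0.605, GLUL 1.49 ± 0.148 and 1.32 ± 1.53, and PCK1 1.02 ± 0.286 and 0.637 ± 1.10 (GR cell first, SD, n = 3 lists), and the lists of the lines overlapped at all 3.

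**Figure D3:**
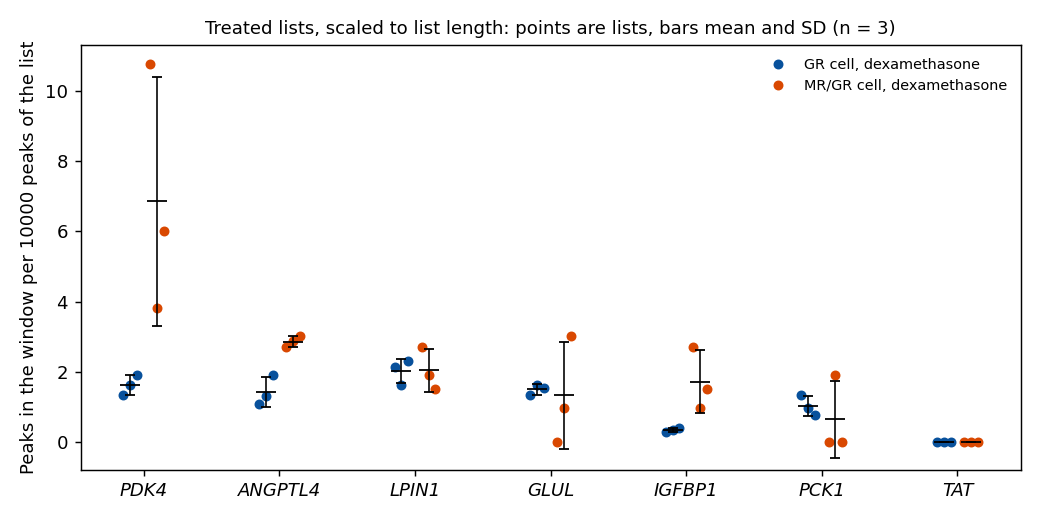
Peaks in each window per 10000 peaks of the list (vertical axis) in the 6 treated lists, with 1 point per list and the mean and SD over 3 lists. PDK4, ANGPTL4 and IGFBP1 lie higher in all MR/GR-cell lists, while LPIN1, GLUL and PCK1 overlap between the lines.

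The 6 treated lists gave 35 sites in the windows. The GR cell held 24 and the MR/GR cell 9, and all 9 were among the 24, as were 90.9% of the 5965 MR/GR-cell sites of the genome among its GR-cell sites, so that 9 of 9 is near the background. The MR/GR cell thus held 37.5% of the 24 (Wilson 95% interval 21.2 to 57.3, counting error only). That interval treats sites of the same window as independent, which they may not be, so it is no test against the genome. Over the genome the MR/GR cell held 17.9% of the 30365 GR-cell sites. PDK4 and IGFBP1 gave 5 of the 9. Without them, a choice made after their values were seen, the share was 22.2% (4 of 18, 9.0 to 45.2).

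Of 19 sites in 3 of 3 GR-cell lists, 7 were in all 6 lists (36.8%, genome 13.2%) and 9 in no MR/GR-cell list (47.4%, genome 65.6%). The 7 were the 4 shared sites of PDK4 and 1 each at ANGPTL4, LPIN1 and IGFBP1. They made up all 7 peaks of MR/GR-cell list 1, the shortest treated list, in which 81.3% of the 3713 peaks lay at sites of all 6 lists. The 6 peak centres of such a site lay within 13 to 72 bp (median 47) in the windows and within a median of 69 bp over 3017 sites of the genome. None of the 7 was near a vehicle peak, since no treated site in the windows overlapped one.

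**Figure D4:**
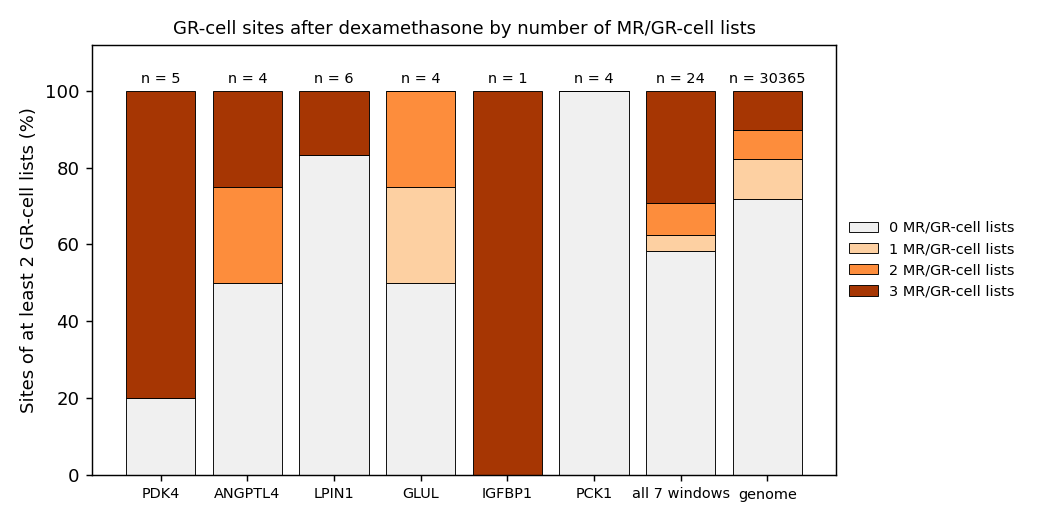
Sites of at least 2 treated GR-cell lists (vertical axis, per cent) by the number of treated MR/GR-cell lists with a peak there, from 0 (pale) to 3 (dark), for each gene with a site, for the 7 windows together and for the genome, with the number of sites above each bar. All 4 PCK1 sites are pale and 4 of the 5 PDK4 sites are dark.

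Of the 35 sites, 11 were in 1 list alone (31.4%, genome 28.0%), and PDK4 and IGFBP1 had none of them. GR-cell list 1 and MR/GR-cell list 2, the longest of each line, had 4 each, GR-cell list 2 had 2 and GR-cell list 3 had 1. Of the 35, 4 had no GR-cell peak (11.4%, genome 5.17%), 2 at PCK1 and 1 each at ANGPTL4 and LPIN1, and all 4 were in MR/GR-cell list 2 only. That list, the longest of its line, was also the sole source of 75.9% of the 2260 such sites of the genome.

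Liver-restricted genes had fewer sites per length than broadly expressed genes in both lines, but not gene by gene. The GR cell held 3.45 sites per 100 kb in the 4 windows of broadly expressed genes and 1.39 per 100 kb in the 3 windows of liver-restricted genes, and the MR/GR cell held 1.45 and 0.278. By gene the GR-cell density was 4.17 sites per 100 kb at PDK4, 3.33 at ANGPTL4, GLUL and PCK1, 3.16 at LPIN1, 0.833 at IGFBP1 and 0 at TAT. The PCK1 value, equal to those of ANGPTL4 and GLUL, depends on the lists used. With 1 GR-cell list dropped, a site needed a peak in both remaining lists. The 4 GR-cell sites of PCK1 then became 1 without list 1, 2 without list 2 and 3 without list 3, while GLUL kept 4 and ANGPTL4 3 or 4. PCK1 had 1 of its 4 sites in 3 of 3 GR-cell lists, against 17 of 19 over the broadly expressed genes and 75.5% of GR-cell sites in the genome. The MR/GR-cell density was 3.33 at PDK4, 1.67 at ANGPTL4, 0.833 at GLUL and IGFBP1 alike, 0.526 at LPIN1 and 0 at PCK1 and TAT, so the low genes of the liver class were IGFBP1 and TAT in the GR cell, and PCK1 and TAT in the MR/GR cell. Genes are not replicates, and with 3 and 4 of them the contrast is a description without a test.

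With windows widened by 50 kb at each side, chosen after seeing the data, the TAT window took in its 2 flanking sites and the PCK1 window held 8 GR-cell sites, still with none held by the MR/GR cell. The GR-cell density was then 2.95 per 100 kb for broadly expressed and 1.67 for liver-restricted genes, and the MR/GR-cell density 1.16 and 0.152.

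The MR/GR cell held a larger part of the GR-cell sites in the middle bands, as drawn here, than in the flanks. These bands, 210 kb in all, had 8 sites of the GR cell (3.81 per 100 kb) and 6 of the MR/GR cell (2.86 per 100 kb). The flanks, 700 kb in all, had 16 (2.29 per 100 kb) and 3 (0.429 per 100 kb). The MR/GR cell thus held 6 of 8 GR-cell sites in the middle bands and 3 of 16 in the flanks, and those 3 were all at PDK4. The split depends on where the bands end, and windows are set to 10 kb. The shared site chr19:8420557-8420983 lay 50.8 kb from the lower edge of the ANGPTL4 window and counted as middle. The site chr20:56128676-56129084, held by the GR cell alone, lay 48.9 kb from that of PCK1 and counted as flank. LPIN1 sites counted as flank may lie in a longer form of that gene. The same split was not computed for other genes, for which no hg19 annotation was used here, and it was not tested. GR-cell sites in the windows had their closest GR-cell neighbour at a median of 11.8 kb (24 sites), against 21.0 kb over the genome.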

How the data were processed

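Each of 4 GR immunoprecipitations had 3 lists of called peaks, and input DNA was not analysed here. The deposited lists, made by the authors, give a chromosome, start and end in bp per peak and no score. Per the submitters' processing notes, the tools were HOMER 4.8.3, Picard 1.115, SAMtools 1.3.1, Bowtie and Trim Galore 0.4 on hg19, with roles and thresholds not given in the sources used here. Each list has 1 peak width, 280 to 424 bp in treated lists. Wider peaks overlap more easily.

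Windows are those of the rule, to 10 kb. The 7 genes, their classes and the tests were chosen with earlier results of these data known, and all 7 genes are named, with every site of at least 2 lists of a line or of special pattern. Lists (n = 3) were compared by two-sided exact permutation tests of mean peaks per list (20 arrangements). Background tiles of 120 or 190 kb ran from the first to the last treated peak of chromosomes 1 to 22 and X. Alternatives were other window edges, overlap criteria and list numbers per site, scaling to list length, dropping each list in turn and a block for the list number. Other genes of the pathway were not analysed here, since no hg19 annotation was used. For the treated lines, merging was run on simulated data of 2000 sites and recovered 100% of the total held per line. Those sites lay too far apart to overlap, and peaks of a site always overlapped, so full recovery was fixed beforehand. The run checked the code and could not show how well merging separates close sites of these lists. Python 3.11.15, numpy 2.4.6, SciPy 1.17.1 and matplotlib 3.10.9 were used.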

Additional observations from a re-analysis of the deposited data

How the results depend on the processing

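Scaled to 10000 peaks of a list, the difference between the treated lines turned from -14.7 to 7.55 peaks over the 7 windows, and to 5.25 at PDK4, 1.43 at ANGPTL4 and 0.025 at LPIN1, since the scale divides by list length and the MR/GR-cell lists are shorter. Trimming the windows by 25 kb at each side removed peaks and gave -8.33 for that difference, 15.7 for dexamethasone in the GR cell (24.3 before) and 7.67 in the MR/GR cell (10.0 before). Widening them by 50 kb gave -26.3, 39 GR-cell sites (24 before) and a density difference, broad minus liver, of 1.28 per 100 kb (2.07 before). With a peak in at least 1 list, the MR/GR cell held 14 sites (9 before), and without PDK4 and IGFBP1 it held 4. Dropping any 1 list gave a line difference of -16.2 to -13.0, a dexamethasone effect of 22.7 to 25.2 for the GR cell and 8.5 to 11.5 for the other line, and a share of GR-cell sites kept in the MR/GR cell of 29.2% (without MR/GR-cell list 2 or 3) to 47.4% (without GR-cell list 1). The genome share was then 10.5%, 10.9% and 22.01%. A line with a list dropped still needed 2 lists to hold a site. List numbers are not in the labels. With them as a replicate block the differences stayed -14.7, 24.3 and 10.0, and 3 blocks allow no exact sign-flip p under 0.25. Of 367 alternatives for single genes, 338 kept their direction, or for site counts their size within 1.5 times, 26 moved and 3 were reversed, those 3 under the scaling. The 338 include every block alternative, in which a difference cannot change, and alternatives for TAT that set no peaks against no peaks. They are thus not a measure of how stable the results are. A stricter calling threshold was not run, since the lists carry no scores. Read depth is unknown, which limits every statement on peaks not called.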
